A study of Mus musculus with 9 samples.

Results

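The 10 genes described here are a set by function. Absorptive cells of the small intestine use them to digest food at the cell surface and to package dietary fat. The genes were chosen with earlier results of these data known. They are Alpi, Sis, Fabp1, Fabp2, Mttp, Apob, Prap1, Apoa1, Apoa4 and Apoc2. Of them 9 had at least 1 probe set annotated to them alone, among the 18194 genes measured, and Sis had none and was not analysed here. The 9 genes held 17 probe sets, of which 6, belonging to 5 genes, passed the filter for testing, which asked for a log2 value of at least 4 on 3 or more of the 9 arrays.

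RNA was taken from colonic mucosa of male C57BL/6 mice killed at 6 weeks and measured on Affymetrix arrays. The 9 arrays fall into 3 from mice carrying the hGAS transgene (hGAS), 3 from mice without the gastrin gene (Gas-/-, here GasKO) and 3 from wild-type mice (WT), and no further allele or treatment is given for any group. The promoter that drives hGAS, the number of lines, the part of the colon sampled and whether replicates were separate mice are not given in the sources used here, so a p-value here rests on the spread among these arrays alone. The title of the series names progastrin, the precursor protein made from the gastrin gene, and its effect on proliferation of cancer cells. The array medians were 4.13 to 4.16 on the log2 scale, and Gast itself lay at 1.93 to 2.14 on all 9 arrays, so its probe set checks neither label.

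Enterocytes are the columnar absorptive cells of the small intestine. Their brush border carries phosphatases and disaccharidases, fatty acids that enter are held by small binding proteins, and triglyceride is loaded onto apolipoprotein B by the microsomal transfer protein, joined by further apolipoproteins and released to the lymph as chylomicrons. Colonocytes mainly absorb salt and water and take up little fat, and these genes are known chiefly from the small intestine and, for most of the lipid genes, the liver.

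The samples carried colon markers in all groups. All 14 colonocyte markers and all 9 epithelial markers passed the filter, while lactase (Lct) lay at 2.39 to 2.46 and trehalase (Treh) at 2.51 to 2.56 over the 9 arrays, both under log2 4, the level below which a value is called near background here. Of the 20 genes listed as small-intestinal enterocyte markers, which include the 10 genes of the set, 11 passed the filter, and arrays held 11 to 12 of them at or above log2 4 in hGAS, 10 in GasKO and 9 to 10 in WT. Lct and Treh are examples from these 20, and Slc10a2, also among them, reached log2 4 on hGAS replicate 2 alone, as given at the end. Whether the share of small-intestinal cells differed between arrays was not tested. The name of the set describes where its genes are best known, not the tissue sampled.

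The promoters of 4 of the genes called in hGAS vs GasKO are shown, from 250 bases before to 50 after the start of transcription, on the strand of the gene, because the arrays of hGAS lay above all others for the first 3 and those of GasKO lay above all others for Apoc2. They come from RefSeq, build GRCm38.p6, at chr1:87101557-87101856 on the minus strand for Alpi, chr3:122894822-122895121 on the plus strand for Fabp2, chr7:140093146-140093445 on the plus strand for Prap1 and chr7:19677892-19678191 on the minus strand for Apoc2. Capitals mark letters that match a motif of a regulator of intestinal genes or the TATA box on either strand.
Alpi: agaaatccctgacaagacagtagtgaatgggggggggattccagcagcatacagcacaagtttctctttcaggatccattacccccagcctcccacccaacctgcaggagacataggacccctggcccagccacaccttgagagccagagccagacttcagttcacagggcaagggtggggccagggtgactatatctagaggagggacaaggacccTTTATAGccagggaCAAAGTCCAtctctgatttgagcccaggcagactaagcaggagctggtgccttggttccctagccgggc
Fabp2: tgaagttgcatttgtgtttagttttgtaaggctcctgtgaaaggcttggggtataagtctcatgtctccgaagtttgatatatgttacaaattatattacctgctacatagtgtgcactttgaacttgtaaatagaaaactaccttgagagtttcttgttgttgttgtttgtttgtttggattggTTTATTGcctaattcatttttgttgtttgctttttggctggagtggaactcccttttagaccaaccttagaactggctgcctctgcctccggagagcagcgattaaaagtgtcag
Prap1: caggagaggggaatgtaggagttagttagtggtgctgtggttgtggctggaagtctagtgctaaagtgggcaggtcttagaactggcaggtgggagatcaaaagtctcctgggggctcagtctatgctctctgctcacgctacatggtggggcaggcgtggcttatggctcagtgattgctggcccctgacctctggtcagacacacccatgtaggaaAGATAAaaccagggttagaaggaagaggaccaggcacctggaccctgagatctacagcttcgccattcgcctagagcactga
Apoc2: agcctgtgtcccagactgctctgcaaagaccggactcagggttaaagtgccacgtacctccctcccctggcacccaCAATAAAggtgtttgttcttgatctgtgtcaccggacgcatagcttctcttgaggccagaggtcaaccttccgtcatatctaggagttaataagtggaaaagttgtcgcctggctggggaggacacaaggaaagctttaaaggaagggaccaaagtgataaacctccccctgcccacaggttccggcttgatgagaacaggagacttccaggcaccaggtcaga

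The motifs searched were CAAAGTCCA for HNF4, TTTATNG for CDX, AGATAA for GATA and TATAAA for the TATA box. Among the promoters shown, only that of Alpi held the HNF4 letters, at positions -19 to -11 from the start, and 0.475% of the 32851 promoters in the RefSeq table hold them. Alpi also held CDX letters at -33 to -27, which overlap a TATA match on the other strand. Fabp2 held CDX letters at -65 to -59, Prap1 held GATA letters at -32 to -27, and Apoc2 held CDX letters on the other strand at -174 to -168. The shares of all promoters with such letters were 10.9% for CDX, 11.2% for GATA and 13.6% for TATA. No motif was common to all 4. Of factors that bind such letters, Hnf4a lay at 12.26 to 12.53, Cdx1 at 10.55 to 10.81, Cdx2 at 7.96 to 9.69 and Gata6 at 8.77 to 9.08 over the arrays, and no comparison called any of these 4. Gata4 lay near background at 2.13 to 2.18. The smallest adjusted p was 0.269 for Hnf4a, 0.275 for Cdx1, 0.401 for Gata6 and 0.0761 for Cdx2, the last for a log2 difference of 0.93 in hGAS vs WT.

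Set against GasKO, hGAS mucosa had more Alpi, Prap1, Fabp2 and Apob RNA and less Apoc2 RNA. Set against WT, Prap1 alone of the 5 passed the test in hGAS and Apoc2 alone in GasKO, both being higher. The hGAS arrays of Alpi and Fabp2 also lay above all WT arrays, but these differences did not pass. Differences were tested with limma across all 11274 genes that passed the filter, with Benjamini-Hochberg adjustment over those genes, and are called at an adjusted p under 0.05. In hGAS vs WT 1 of 5 was called, where 1.16% of all genes tested were. In GasKO vs WT 1 of 5 was called, beside 12.1% of all genes. In hGAS vs GasKO all 5 were called, 4 higher and 1 lower, beside 16.6% of all genes (8.05% higher and 8.51% lower). The arrays of both groups did not overlap in 3 of 5 in hGAS vs WT, 1 of 5 in GasKO vs WT and 5 of 5 in hGAS vs GasKO, beside 17.7%, 31.1% and 36.7% of all genes. The test over the 3 genotypes together called Alpi, Prap1 and Apoc2, beside 15.8% of all genes. The median log2 difference over the 5 was 1.46 in hGAS vs WT, -0.04 in GasKO vs WT and 1.503 in hGAS vs GasKO, where the medians of all genes were within 0.0080 of 0. Prap1 passed the filter through its 3 hGAS arrays alone, so a difference was built into its entry. The set itself was chosen with earlier results of these data known, which can raise its share of calls. These counts are therefore descriptions. The 3 comparisons share arrays, and in bulk tissue fewer cells of a type and less RNA per cell cannot be told apart.

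**Figure D1:**
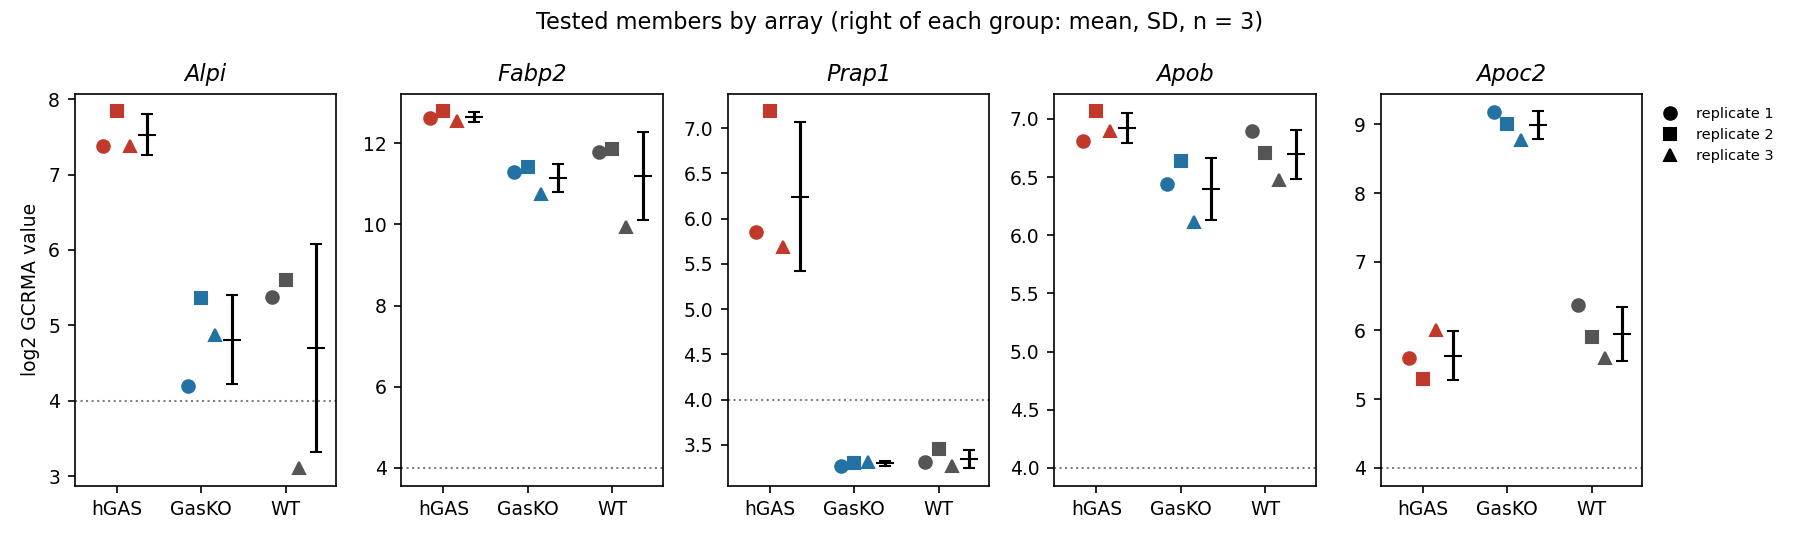
Log2 GCRMA values of the 5 genes tested on each of the 9 arrays. Points are single arrays, their shape gives the replicate number, the bar to the right of each group is the mean with its SD (n = 3), the dotted line is log2 4, and each panel has its own vertical axis. The hGAS points lie above all others for Alpi, Fabp2 and Prap1, and the GasKO points lie above all others for Apoc2.

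Alpi encodes intestinal alkaline phosphatase, a brush border enzyme that removes phosphate from bacterial lipopolysaccharide among other substrates. Its probe set gave 7.38, 7.84 and 7.37 on the hGAS arrays, 4.19, 5.37 and 4.87 on the GasKO arrays and 5.38, 5.60 and 3.11 on the WT arrays (log2). All hGAS arrays were above all others, GasKO and WT overlapped, and WT replicate 3 was the lowest of the 9 and the only one near background. Alpi was 6.59-fold higher in hGAS than in GasKO (log2 2.72, SE 0.57, adjusted p = 0.0111), a call kept in 21 of 21 alternative analyses. Against WT the difference was as large, 7.13-fold (log2 2.83, SE 0.57, 95% interval 1.54 to 4.12), and just missed the threshold (adjusted p = 0.0555). Without WT replicate 3 it was log2 2.04 and was called (adjusted p = 0.0317), and without WT replicate 2 it was log2 3.28 and was called (adjusted p = 0.0489). With the replicate number as a block the adjusted p was 0.0288. GasKO and WT differed by 0.11, with a 95% interval of -1.18 to 1.40 (adjusted p = 0.933), so a difference of more than log2 1 in either direction was not excluded by this spread, and without WT replicate 3 the value was -0.68 (adjusted p = 0.2).

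Alpi lies between other alkaline phosphatase genes. Akp3, which encodes the duodenal form in mice, and Alppl2 flank it in the gene table, and their probe sets stayed between 1.91 and 1.94 and between 2.15 and 2.18 on all arrays. Alpi was thus the member of this cluster with signal in these samples. Sis, sucrase-isomaltase, is the other brush border enzyme of the set and has no value here. Of the other brush border enzymes listed, 20 of 23 had a probe set and 10 passed the filter. None of the 10 was called by limma in hGAS vs WT (median 0.0026, with 4 of 10 at an unadjusted p under 0.05), beside 1.16% of all genes. In GasKO vs WT 3 fell (median -0.20), 30% of the 10 beside 12.1% of all genes. In hGAS vs GasKO 5 were higher (median 0.32), 50% of the 10 beside 16.6% of all genes. Naaladl1, a peptidase of the ileal brush border, had 7.50, 8.51 and 7.80 in hGAS, 6.16, 6.46 and 6.52 in GasKO and 8.08, 7.91 and 8.32 in WT, so that it was GasKO that stood low. It fell by 1.73 in GasKO vs WT on the log2 scale (adjusted p = 0.00107). Mep1a, the alpha subunit of the metalloprotease meprin, fell by 0.50 (adjusted p = 0.00229), and Enpp3, a nucleotide pyrophosphatase, fell by 0.78 (adjusted p = 0.00167). In hGAS vs GasKO the same 3 genes were higher by 1.56, 0.71 and 0.69, and Mep1b, the meprin beta subunit, by 0.49 (adjusted p = 0.00751) and Dpep1, a membrane dipeptidase, by 0.64 (adjusted p = 0.0464). The GasKO and WT arrays did not overlap in Naaladl1, Mep1a and Enpp3, whereas they overlapped in Alpi. Among the 10 genes, GasKO lay wholly below WT in 3 and wholly above in 1, and 31.1% of all genes did not overlap in either direction.

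Fabp1 and Fabp2 encode the liver and intestinal fatty acid binding proteins, small cytosolic proteins that hold fatty acids after uptake. Fabp2 gave 12.61, 12.79 and 12.55 in hGAS, 11.28, 11.41 and 10.75 in GasKO and 11.78, 11.85 and 9.94 in WT (log2). The hGAS arrays were again above all others, the other groups overlapped, and WT replicate 3 was again lowest. Fabp2 was 2.84-fold higher in hGAS than in GasKO (log2 1.503, SE 0.43, adjusted p = 0.0417), but this call was lost in 10 of 21 alternatives (adjusted p 0.000288 to 0.137 over all of them). Against WT it was 2.75-fold higher (log2 1.46, SE 0.43, 95% interval 0.50 to 2.42), which did not pass (adjusted p = 0.151), nor did the log2 0.84 left without WT replicate 3 (adjusted p = 0.0797). GasKO and WT differed by -0.04 (95% interval -1.01 to 0.92, adjusted p = 0.969). That value rests on WT replicate 3, since without it the difference was -0.67 and was called (adjusted p = 0.0396). Fabp1 contrasted with Fabp2. Its 2 probe sets averaged under log2 4 in every group, the higher at 3.42 ± 0.08 in hGAS, 3.44 ± 0.05 in GasKO and 3.45 ± 0.09 in WT (SD, n = 3 each).

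Chylomicron assembly needs Apob, the structural protein of the particle, and Mttp, the transfer protein that loads it with lipid. Apob gave 6.81, 7.07 and 6.90 in hGAS, 6.45, 6.64 and 6.11 in GasKO and 6.90, 6.71 and 6.48 in WT (log2). The hGAS and GasKO arrays did not overlap, and WT overlapped both. Apob was 1.44-fold higher in hGAS than in GasKO (log2 0.52, adjusted p = 0.0421), a call lost in 8 of 21 alternatives. The differences from WT, 0.23 in hGAS (95% interval -0.11 to 0.56, adjusted p = 0.553) and -0.30 in GasKO (95% interval -0.63 to 0.04, adjusted p = 0.25), did not pass. The second Apob probe set stayed between 2.30 and 2.34. Mttp was near background on both of its probe sets, with means of 2.69 in hGAS, 2.67 in GasKO and 2.77 in WT for the higher one, so Apob had signal where Mttp had none above background.

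Prap1, proline-rich acidic protein 1, is a secreted protein of the intestinal epithelium that binds lipid and aids the transfer protein. Its higher probe set, of a class that can also bind related transcripts, gave 5.85, 7.19 and 5.69 in hGAS, 3.26, 3.30 and 3.31 in GasKO and 3.31, 3.45 and 3.26 in WT (log2). It was above background on the hGAS arrays alone, and hGAS replicate 2 was the highest. The difference in hGAS was log2 2.90 against WT (SE 0.32, 7.45-fold, adjusted p = 0.00456) and log2 2.95 against GasKO (7.71-fold, adjusted p = 0.000244), and both folds depend on where background lies. The second probe set gave 5.82, 7.22 and 5.19 in hGAS, 2.21, 2.22 and 2.25 in GasKO and 2.24, 2.86 and 2.20 in WT, with differences of 3.64 and 3.85. Both calls held in all 20 alternatives in which Prap1 could be tested (adjusted p 6.57e-05 to 0.049 against WT), and GasKO and WT differed by -0.05 (adjusted p = 0.951). Because Prap1 passed the filter through its hGAS arrays alone, its calls and their count are descriptions.

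Apoa1, Apoa4 and Apoc2 are apolipoproteins of lipoprotein particles, Apoa1 and Apoa4 being made in quantity by small intestine and liver. Apoa1 lay near background on all 4 of its probe sets (means of the highest 2.44 in hGAS, 2.44 in GasKO and 2.43 in WT), and Apoa4 on both of its own (means of the higher 2.35 in hGAS, 2.35 in GasKO and 2.36 in WT). Apoa1 and Apoa4 are neighbours in the genome with Apoc3 and Apoa5, which were also near background, with Apoc3 at 2.38 to 2.43 and Apoa5 at 2.29 to 2.36 over the arrays. The 11 probe sets of the set that never reached log2 4 lay between 1.95 and 3.54, and their group means differed by 0.0935 at most. A probe set at this level can miss low expression, so these values do not show that the RNA was absent.

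**Figure D2:**
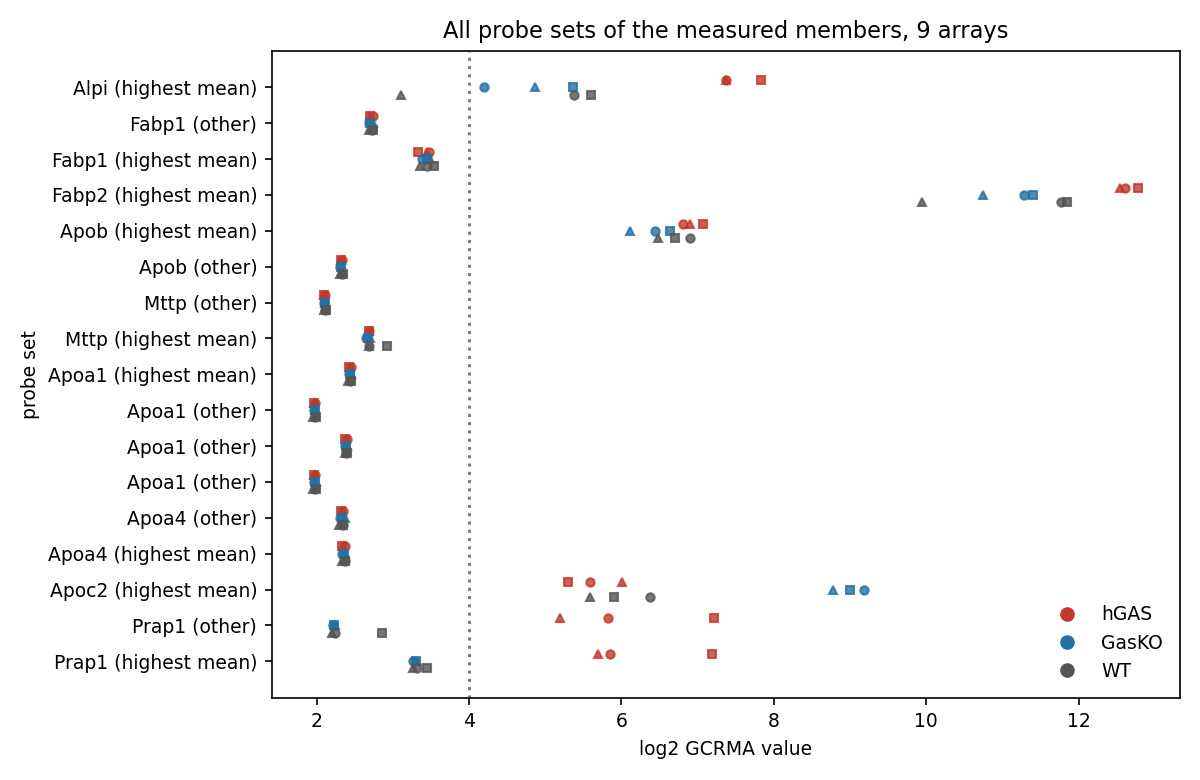
Log2 GCRMA values of all 17 probe sets of the 9 measured genes. Each row is a probe set, points are single arrays coloured by genotype and shaped by replicate (circle 1, square 2, triangle 3), and the dotted line is log2 4. The 11 rows left of the line lie between 1.95 and 3.54 with the genotypes on top of each other, and both Prap1 rows cross the line in hGAS alone.

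Apoc2, the cofactor that switches on lipoprotein lipase, behaved otherwise. It gave 5.59, 5.30 and 6.01 in hGAS, 9.18, 8.9995 and 8.78 in GasKO and 6.37, 5.90 and 5.59 in WT (log2). The GasKO arrays stood far above all others, and hGAS and WT overlapped. Apoc2 rose 8.18-fold in GasKO against WT (log2 3.03, SE 0.22, adjusted p = 2.25e-05), was 10.2-fold lower in hGAS than in GasKO (log2 -3.35, adjusted p = 1e-05), and both calls held in 21 of 21 alternatives. The hGAS difference from WT was -0.32 (95% interval -0.82 to 0.18, adjusted p = 0.571).

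**Figure D3:**
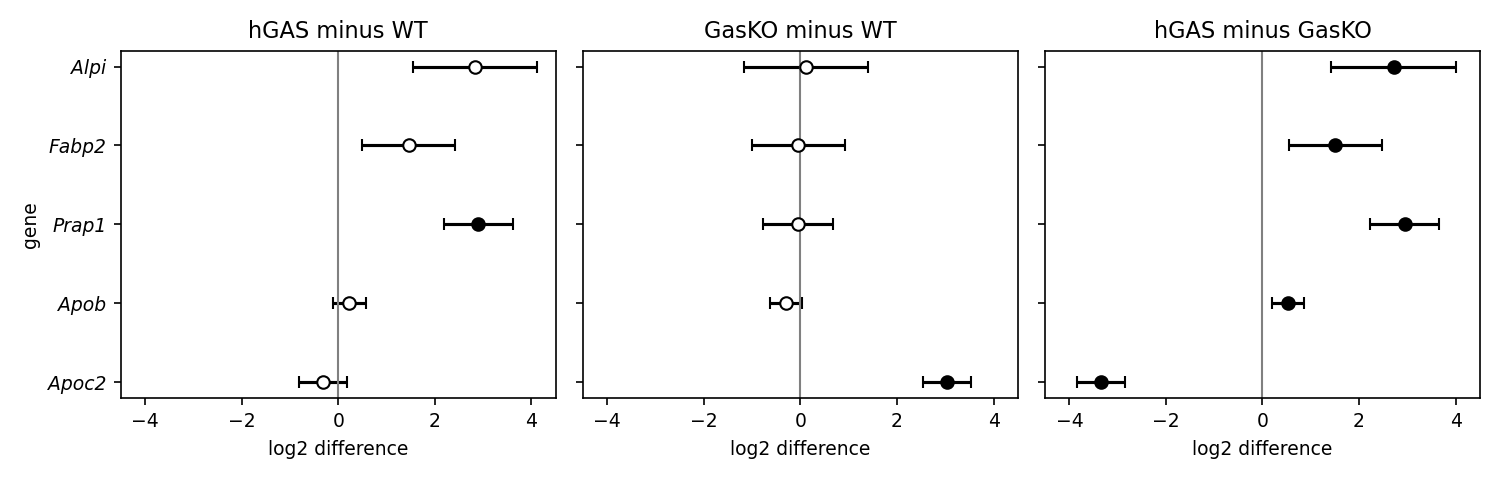
Log2 differences of the 5 genes tested for hGAS minus WT, GasKO minus WT and hGAS minus GasKO, with 95% intervals from the limma fit over 9 arrays. Filled points passed an adjusted p of 0.05. Prap1 is the filled point in hGAS minus WT, Apoc2 in GasKO minus WT, and all 5 are filled in hGAS minus GasKO.

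Apoc2 is one of a cluster of apolipoprotein genes on chromosome 7. Apoc4 and Apoc1, its neighbours, stayed near background in all groups, and Apoe, which carries remnant particles to their receptors, fell by 0.49 in GasKO against WT (adjusted p = 0.00611), with 10.04, 10.18 and 10.04 in GasKO and 10.52, 10.64 and 10.56 in WT. The cluster therefore did not move as a block. Over the 20 protein-coding genes on each side, a window chosen after the values were seen, 8 of 23 tested genes were called in GasKO vs WT (34.8%, beside 12.1% of all genes) and 0 of 23 by limma in hGAS vs WT, where 3 of 23 had an unadjusted p under 0.05. Of the 8, 4 rose and 4 fell. Igsf23, an immunoglobulin superfamily gene 13 genes away, rose 8.02-fold (log2 3.00, adjusted p = 4.94e-08), Nlrp9b, an inflammasome sensor gene, fell by 2.21, and Ceacam20, an intestinal adhesion gene also on the colonocyte list, fell by 1.56. The windows around the other tested genes held 3 of 18 called for Alpi (16.7%), 4 of 25 for Fabp2 (16%), 2 of 23 for Apob (8.7%) and 1 of 11 for Prap1 (9.09%) in GasKO vs WT. Among these windows, that of Apoc2 therefore had the highest share called in GasKO vs WT. In hGAS vs GasKO 8 of 23 were called in the Apoc2 window (34.8%), 10 of 25 in that of Fabp2 (40%) and 3 of 11 in that of Prap1 (27.3%). There, 2 of 18 were called in that of Alpi and 3 of 23 in that of Apob, beside 16.6% of all genes. The Fabp2 window had the highest share in hGAS vs GasKO. The part of the region around Apoc2 in its difference was not tested.

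**Figure D4:**
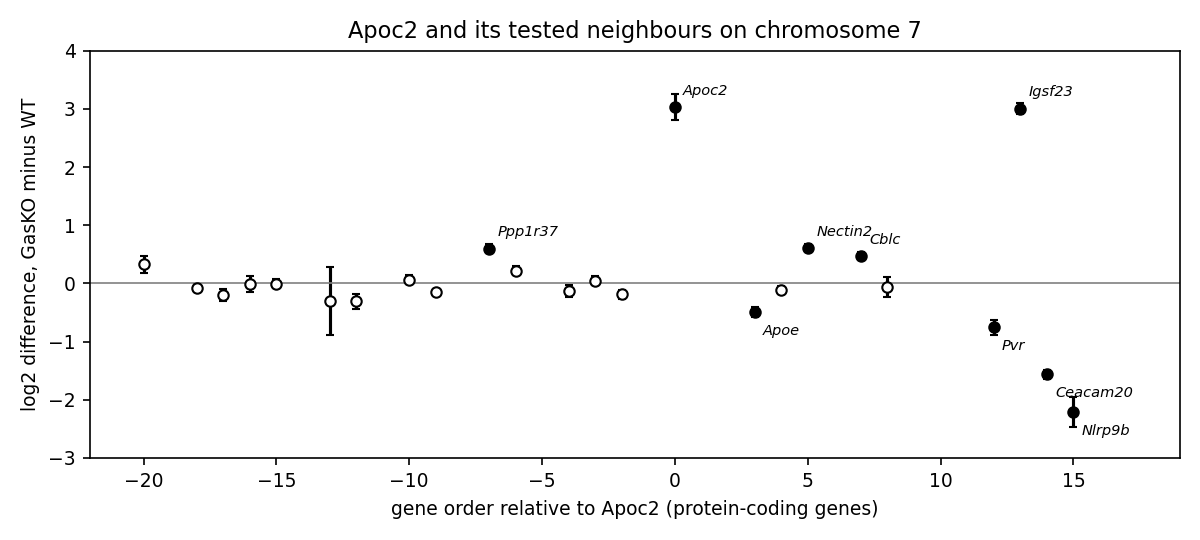
GasKO minus WT log2 differences of Apoc2 and the tested genes among the 20 protein-coding genes on each side of it, in gene order. Bars are SE from the limma fit, and filled points passed an adjusted p of 0.05. Apoc2 at 3.03 and Igsf23 at 3.00 stand above the other points, and called neighbours lie on both sides of 0.

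By adjusted p, the other genes of fat uptake and packaging were called at a share near that of all genes. Of 42 other genes listed, 40 had a probe set and 29 passed the filter. In hGAS vs WT 0 of 29 were called by limma (median -0.02), beside 1.16% of all genes. At the looser threshold of an unadjusted limma p under 0.05 there were 12 of 29, for which no share of all genes is given here. The hGAS and WT arrays did not overlap in 7 of the 29 that were higher and 6 that were lower. Among all genes 17.7% did not overlap in either direction, so by this measure the list was not near that share. In GasKO vs WT 1 rose and 3 fell (median -0.01), 13.8% of the 29 beside 12.1% of all genes. Cd36, a fatty acid transporter, rose, with 7.95, 8.40 and 7.90 in GasKO against 7.33, 7.07 and 7.07 in WT (log2 0.93, adjusted p = 0.00186), while Apoe, Tm6sf2, a gene needed for lipid loading of lipoproteins (-0.55, adjusted p = 0.0254), and Gpat4, an enzyme of triglyceride synthesis (-0.30, adjusted p = 0.0405), fell. In hGAS vs GasKO 1 was higher and 5 were lower (median 0.04), 20.7% of the 29 beside 16.6% of all genes. The higher one was Slc27a4, a fatty acid transport protein (log2 0.46, adjusted p = 0.022). Plin2, a lipid droplet coat protein, was lower (-0.47, adjusted p = 0.00605), and Abca1, a cholesterol exporter (-0.57, adjusted p = 0.00465), Plin3 (-0.31, adjusted p = 0.0119), Cd36 (-0.58, adjusted p = 0.0172) and Abcg5 (-1.37, adjusted p = 0.0409) were lower too. The sterol transporter Npc1l1 and the chylomicron genes Apoc3 and Apoa5 were not above background in any group mean.

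Among 33 transport and regional genes of the small intestine, 29 had a probe set and 17 were tested. In hGAS vs WT, Isx, an intestinal homeobox gene that restrains carotenoid and vitamin A uptake, rose by log2 2.90 (adjusted p = 0.0488) and the peptide transporter Slc15a1 fell by 0.52 (adjusted p = 0.0278), with a list median of -0.0017. They made up 11.8% of the 17, beside 1.16% of all genes. In GasKO vs WT 17.6% of the 17 were called, beside 12.1% of all genes, and 3 fell and none rose (median -0.09). These were the amino acid carriers Slc7a9 (-2.32, adjusted p = 0.00107) and Slc6a20a (-1.74, adjusted p = 0.00013), and Slc15a1 (-0.48, adjusted p = 0.00653). In hGAS vs GasKO 23.5% of the 17 were called, beside 16.6% of all genes, and 4 were higher (median 0.17). They were Slc7a9 (2.82, adjusted p = 0.000241), Slc6a20a (1.16, adjusted p = 0.00133), the bile acid receptor Nr1h4 (0.87, adjusted p = 0.00765) and Isx (2.54, adjusted p = 0.0149).

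The genes whose values over the 9 arrays lay nearest to each of the 5 differ from gene to gene. Nearness was the root mean square difference of log2 values centred per gene. Nearest to Alpi were Isx (0.271), the glucuronosyltransferase Ugt2b5 (0.360) and the glycosyltransferase B3gnt6 (0.395), where the spread of Alpi itself was 1.49. Nearest to Prap1 were Hoxb6 (0.308), the sulphate carrier Slc13a1 (0.435) and the transcription factor gene Osr2 (0.459), with a spread of 1.43 for Prap1. Nearest to Fabp2 were 1810065E05Rik (0.206), Gpat3 (0.225), an enzyme of triglyceride synthesis, and the carbonic anhydrase Car12 (0.252), with 0.882 for Fabp2. Apob lay nearest to Abhd6 (0.0871), Celf5 (0.0940) and Lrp12 (0.111), with 0.275 of its own. Apoc2 lay nearest to Abhd1 (0.264), the serpin Serpina3n (0.277) and Igsf23 (0.303), with 1.53 of its own. Hoxb6, Slc13a1, Osr2 and Isx, named here for Prap1 and Alpi, are all on the proximal colon list. That list was chosen with earlier results of these data known, so this overlap is a description only.

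Markers of colon region differed between genotypes as well. Their lists were chosen with earlier results of these data known, so a likeness to Alpi, Fabp2 and Prap1 is a description. Over all genes, 1.16% were called in hGAS vs WT and 12.1% in GasKO vs WT. Of 10 proximal colon markers 7 were tested, and 5 of them (Hoxb6, Osr2, Prkg2, Slc13a1 and Isx) rose in hGAS vs WT and 0 were called by limma in GasKO vs WT (1 of 7 at an unadjusted p under 0.05). Hoxb6 and Osr2 passed the filter through their 3 hGAS arrays alone, as Prap1 did, so their rise was built into their entry, and the count of 5 and the mean that follows are descriptions. Their mean centred log2 value was 1.49, 2.28 and 0.82 in hGAS, -0.65, -0.46 and -0.69 in GasKO and -0.40, -0.33 and -2.06 in WT, where that of the 5 genes described here was 0.61, 1.00 and 0.67 in hGAS, -0.16, 0.11 and -0.27 in GasKO and -0.28, -0.33 and -1.36 in WT. In both, hGAS replicate 2 was the highest array and WT replicate 3 the lowest. The mean of the 5 includes Apoc2, which ran the other way, with means of 5.63 in hGAS, 8.99 in GasKO and 5.95 in WT. It therefore lifts the GasKO values of that mean, and no mean without Apoc2 is given here. Summed without logs, which lets abundant genes weigh most, the proximal markers gave 6815 to 8695 in hGAS, 9451 to 12740 in GasKO and 3414 to 8498 in WT. Of 7 tested distal colon markers, 2 fell in hGAS vs WT, the sodium channel subunit Scnn1g (-1.68, adjusted p = 0.00365) and Fxyd4 (-1.12, adjusted p = 0.0176), and 3 fell in GasKO vs WT, and the distal sum was 4413 to 5304 in hGAS, 5649 to 6451 in GasKO and 6209 to 8335 in WT. The colonocyte sum was 119700 to 126000 in hGAS, 115100 to 119900 in GasKO and 111000 to 125700 in WT. The epithelial sum was 83510 to 86570 in hGAS, 90790 to 91390 in GasKO and 84860 to 87690 in WT. The part of colon region in the differences of Alpi, Fabp2 and Prap1 was not tested.

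**Figure D5:**
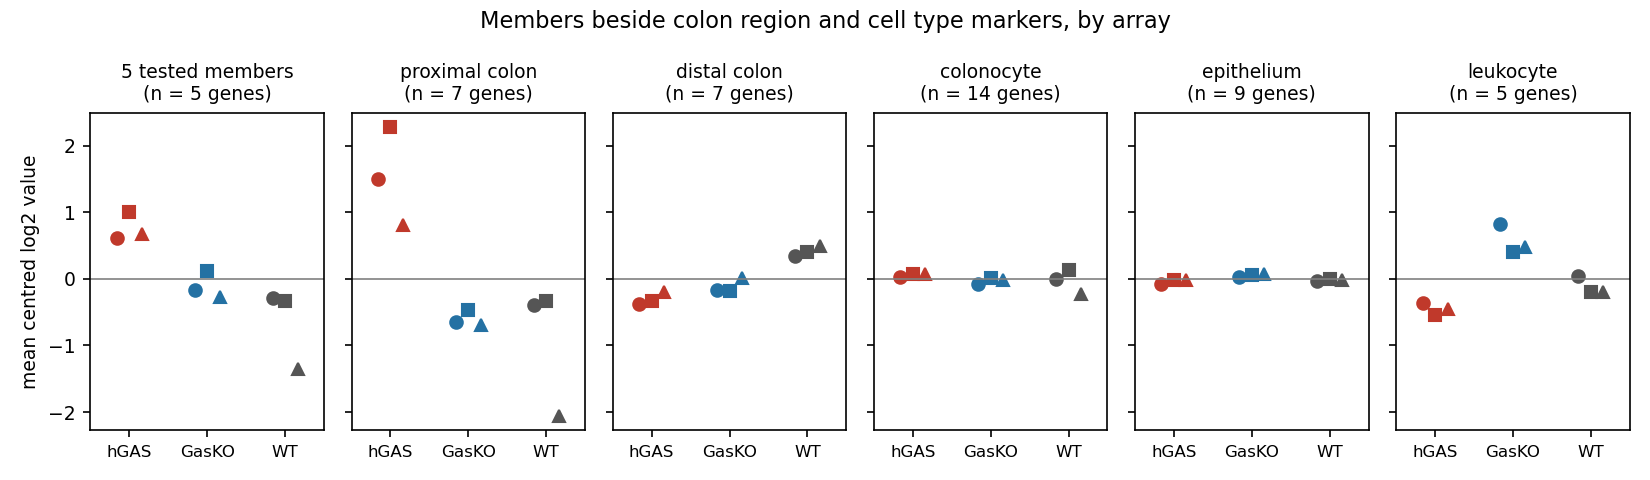
Mean centred log2 value per array (log2 value minus the mean of that gene over the 9 arrays, averaged over the genes of a list) for the 5 genes tested and for markers of proximal colon, distal colon, colonocytes, epithelium and leukocytes. Points are single arrays, shaped by replicate (circle 1, square 2, triangle 3). The 5 genes and the proximal markers share their highest array, hGAS replicate 2, and their lowest, WT replicate 3, and the GasKO arrays are highest for leukocyte markers. Apoc2, which is highest in GasKO, is among the 5 genes and lifts their GasKO points.

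Markers of other cells differed too. The counts below stand beside 1.16% of all genes called in hGAS vs WT, 12.1% in GasKO vs WT and 16.6% in hGAS vs GasKO. All 5 pan-leukocyte markers rose in GasKO vs WT, and all 5 were lower in hGAS than in GasKO, with summed levels of 1356 to 1471 in hGAS, 2489 to 3299 in GasKO and 1656 to 1953 in WT. Of 5 tested B cell markers, 3 rose in GasKO vs WT, 3 fell in hGAS vs WT (median -1.58) and 5 were lower in hGAS than in GasKO, with summed levels of 77.4 to 122.5 in hGAS, 419.9 to 708.9 in GasKO and 234.6 to 372.7 in WT. Of the Paneth cell markers 4 of 9 had a probe set, 3 were tested and 2 of these rose in GasKO vs WT, and their sum was 7948 to 10070 in hGAS, 17020 to 22370 in GasKO and 7514 to 17540 in WT. Of 8 pancreatic acinar markers with a probe set, Cela1, an elastase gene, alone passed the filter, and it rose by log2 0.66 in GasKO vs WT (adjusted p = 0.00232). The summed level of the list was 4307 to 5378 in hGAS, 8412 to 8740 in GasKO and 4877 to 6271 in WT. The other acinar markers stayed under log2 4 on every array, so this sum is nearly that of Cela1 alone. The part of these cells in the differences of Apoc2 and of the other genes was not tested. For liver, the other main source of the set's lipid genes, 3 of 9 measured hepatocyte markers passed the filter and 0 of these were called by limma or had an unadjusted p under 0.05 in any comparison. The hepatocyte sum was 401.3 to 543.8 in hGAS, 557.5 to 617.2 in GasKO and 412.7 to 666.6 in WT, and albumin (Alb) lay between 3.39 and 3.81. As a sign of RNA quality, the 3′ minus 5′ Gapdh probe set difference was -0.15 to -0.07 in hGAS, -0.12 to -0.09 in GasKO and -0.18 to -0.14 in WT, and that of actin was 0.88 to 0.94 in hGAS, 0.87 to 0.94 in GasKO and 0.76 to 0.89 in WT.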

How the data were processed

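RNA of colonic mucosa was measured on 9 Affymetrix arrays, 3 for each genotype. The authors deposited log2 values made with GCRMA, per the submitters' processing notes, and its version is not given in the sources used here. GCRMA corrects background from probe sequence and normalises arrays by quantiles, which fixes their overall distribution. Scanner files were not used here. Of 45101 probe sets, 34958 were annotated to 1 gene and 932 to several, which were left out. A gene was represented by its probe set of highest mean over the 9 arrays, and 11274 of 18194 genes, with at least 3 arrays at log2 4, were tested.

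A linear model with genotype alone was fitted to all 9 arrays with limma 3.58.1 in R 4.3.3 (lmFit, eBayes with a trend), with data.table version 1.17.8 for reading files. It had 6 residual degrees of freedom and 3.47 from the prior. Tests were 2-sided and adjusted by Benjamini-Hochberg over the genes tested. The number of arrays limits the precision. Alternatives changed the filter, the scaling, the choice of probe set, the fit and the arrays used. Fits that leave out arrays kept the same 11274 genes. The rule for naming covers all 10 genes with every probe set, called genes of each list (at most 4 per comparison by smallest p, any further ones being named after their values were seen, to complete a count), the 3 nearest genes of each called gene, and its neighbours in the gene table of RefSeq. The genes described, the lists and the naming rule were chosen with earlier results of these data known. Motifs were matched as letters on both strands of the RefSeq promoters. Plots used matplotlib 3.10.9 (Python 3.11.15).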

Additional observations from a re-analysis of the deposited data

How the results depend on the processing

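Apoc2 kept its calls in GasKO vs WT and hGAS vs GasKO in 21 of 21 alternatives, Alpi in hGAS vs GasKO in 21 of 21, and Prap1 in both comparisons with hGAS in 20 of 20, a filter at log2 6 leaving Prap1 untested. The count for Prap1 is a description, since it passed the main filter through its hGAS arrays alone. In hGAS vs WT the genes called numbered 131, against 58 without a filter, 27 in a fit to 6 arrays and 283 with a replicate block, and 26 to 104 when an array was left out. The number of the 5 genes called in it was 1, 2 with a replicate block (Alpi and Prap1), and 1 to 2 with an array left out. In GasKO vs WT it was 1, and 1 to 2 with an array left out (888 to 1375 of all genes). In hGAS vs GasKO it was 5, against 3 without a filter, 3 with the mean of probe sets and 3 to 5 with an array left out (1219 to 1996 of all genes). In the test over 3 genotypes it was 3, against 5 with array weights, 5 with a replicate block and 2 to 4 with an array left out. The cause of these shifts was not tested, beyond the fewer arrays or changed number of genes that the settings bring. Differences near 0 in GasKO vs WT changed sign. Alpi became -0.16 with array weights and spanned -0.68 to 0.56 with an array left out, below 0 without GasKO replicate 2 or WT replicate 3. Fabp2 spanned -0.67 to 0.29, above 0 without GasKO replicate 3, WT replicate 1 or WT replicate 2, and Prap1 spanned -0.0888 to 0.0059, above 0 without WT replicate 2. Same-numbered arrays of different genotypes tended to deviate from their group means together. Their correlations were small, at 0.117 to 0.267 between hGAS and GasKO, 0.0838 to 0.254 between hGAS and WT and -0.0056 to 0.150 between GasKO and WT. In 15 of 18 cases, however, an array correlated best with its own number among the 3 arrays of another group. The labels do not say what the replicate numbers stand for, so the main fit left them out. Whether same-numbered arrays were handled together was not tested. Probe sets near background limit what can be seen of Fabp1, Mttp, Apoa1 and Apoa4, and none of these 4 was called when all genes were tested (adjusted p 0.473 to 1).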

Other observations

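A few absorptive genes of the lists, chosen after their values were seen, reached log2 4 on hGAS replicate 2 alone and so failed the filter. Slc10a2, the ileal bile acid transporter, gave 3.88, 5.69 and 2.92 in hGAS, 2.88 to 2.93 in GasKO and 2.88 to 2.93 in WT. Amn, the membrane anchor of the vitamin B12 receptor, gave 3.48, 5.03 and 2.07 in hGAS, 1.94 to 2.08 in GasKO and 2.05 to 2.08 in WT, and Cubn, the other chain of that receptor, gave 2.25, 4.04 and 2.09 in hGAS, 2.07 to 2.12 in GasKO and 2.07 to 2.12 in WT. Mogat2, which starts triglyceride resynthesis in enterocytes, gave 2.76, 4.595 and 2.45 in hGAS, 2.42 to 2.46 in GasKO and 2.35 to 2.48 in WT. The same array had the highest Prap1, Alpi, Fabp2 and Apob values of the 9. These values were not tested.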
